A study of Mus musculus with 6 samples.

Results

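Most Slc25 genes encode carriers of the inner mitochondrial membrane, and the Slc25 genes were compared between mammary glands of 10 and 5 weeks of age. The members were all genes whose only symbol in the platform annotation starts with Slc25a, which gave 44 of 18193 genes and 93 of 45037 probe sets. Genes of the family with other symbols, such as the uncoupling protein genes Ucp1 and Ucp3, were not counted as members. The probe set with the highest mean log2 signal over all 6 arrays stood for each gene. Female mice of both ages carried both transgenes of a cross between the LH mouse and the MMTV-neu mouse, in which a viral promoter active in mammary epithelium drives the neu (Erbb2) oncogene. What drives the transgene of the LH mouse was not given in the sources used here, and no mice without the transgenes were analysed here. Each age was measured on 3 arrays, each with RNA pooled from 3 animals, so that 9 animals stood behind each age and no value belongs to a single animal.

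Nearly all carriers of this family are built from repeats of a pair of membrane-spanning helices, and most exchange 1 metabolite for another across the inner membrane. They let ADP, phosphate and fuels into mitochondria and let ATP, citrate, aspartate and other products out. In the lactating gland citrate leaves mitochondria as a source of carbon for milk fat and is itself secreted into milk. In muscle, brown fat and white fat other members of the family supply ATP synthesis, heat production and fatty acid oxidation.

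Values are signal intensities in arbitrary units, and array medians lay between 156.4 and 172.5. The gland was recognisable from its milk genes, with signals of Csn2, the beta casein gene, of 13838 to 15709 at 10 weeks and 11817 to 15610 at 5 weeks. Differences are those of log2(signal + 32) at 10 weeks minus 5 weeks, with their standard error (SE), and they understate the change of dim genes. A gene was called when limma's moderated test gave a Benjamini-Hochberg adjusted p under 0.05 over 27022 probe sets. Signals of different probe sets are not comparable with each other, so no carrier is ranked above another by level. In RNA of a tissue, fewer cells of a type and less RNA per cell cannot be told apart.

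Of the 44 Slc25 genes, 38 were bright enough to be tested, and at 10 weeks 5 rose and 11 fell. Called genes made up 42.1% of the tested carriers, where 34.1% of all 13002 genes tested were called in either direction. Genes called higher were 13.2% of the carriers against 15.3% of all genes, and genes called lower were 28.9% against 18.7%. The median log2 difference was -0.06 over the carriers and -0.0037 over all genes. The pools of the ages did not overlap for 22 of 38 carriers (8 with the 10-week pools above, 14 with the 5-week pools above), and the same was true of 50.3% of all genes. In size the differences ran from -1.16 for Slc25a12 to 1.17 for Slc25a14, and 3 called carriers differed by at least 1. When 1 pool was left out in turn, 8 to 13 carriers were called lower and 3 to 5 higher. The 3 called higher came without 10-week pool 1, 10-week pool 2, 5-week pool 2 or 5-week pool 3.

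**Figure D1:**
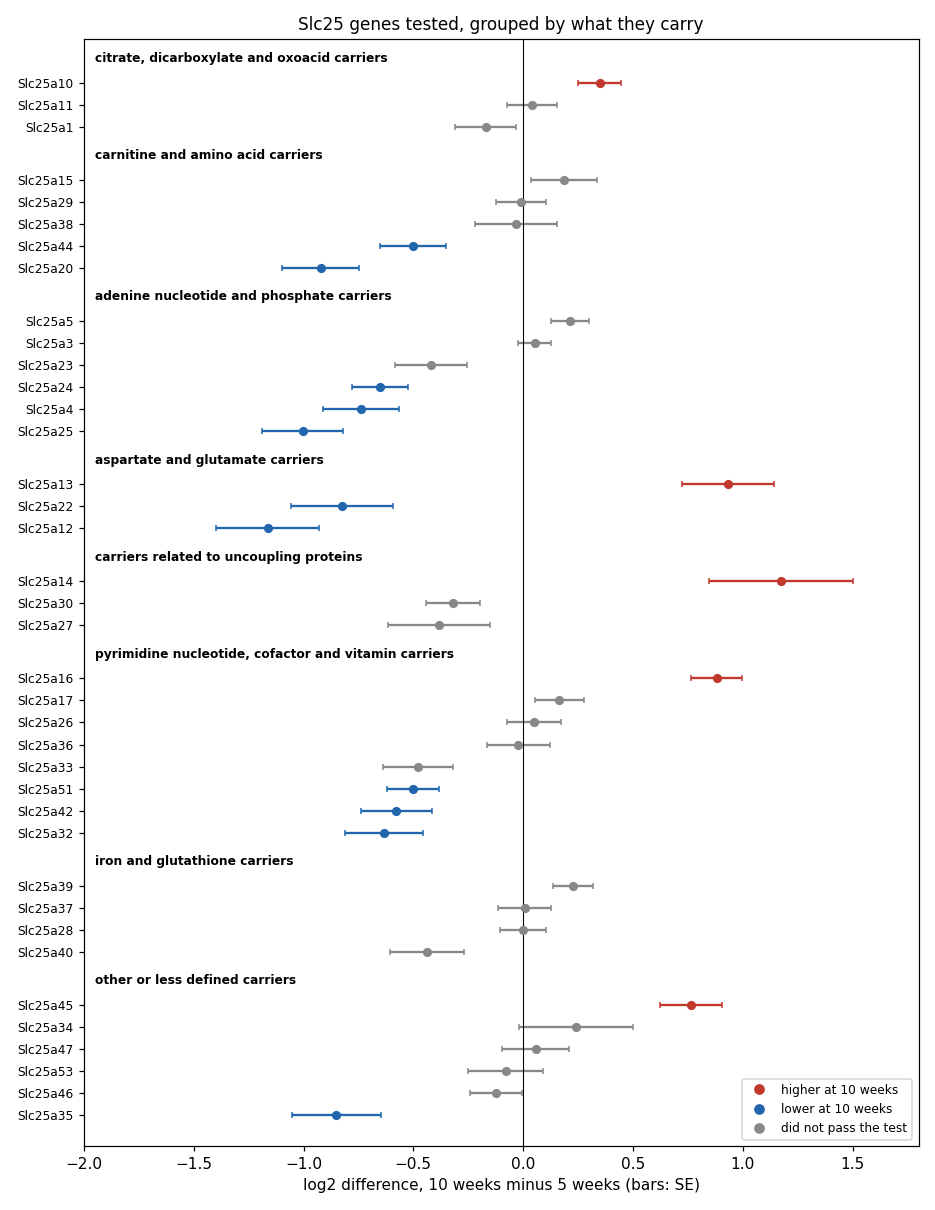
Log2 difference of each tested Slc25 gene between 10 and 5 weeks, with bars for the SE, grouped by the substrates carried. Called genes are red where higher and blue where lower at 10 weeks, and the 22 genes that did not pass the test lie between -0.48 and 0.24.

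The aspartate and glutamate carriers held calls in both directions. Slc25a12 (aralar) and Slc25a13 (citrin) are calcium-regulated paralogues that exchange mitochondrial aspartate for cytosolic glutamate and so serve the malate-aspartate shuttle. Slc25a12 had signals of 599.5, 781 and 816 at 10 weeks against 1629.9, 1179 and 2402 at 5 weeks. All 5-week pools lay above all 10-week pools, and the gene fell by 1.16 ± 0.24 (SE; adjusted p = 0.00654). Slc25a13 had signals of 417, 492 and 462 at 10 weeks against 224, 159 and 309 at 5 weeks. It was higher in every 10-week pool, with a log2 difference of 0.93 ± 0.21 (SE; adjusted p = 0.0109). The within-array log2 ratio of Slc25a12 to Slc25a13 was 0.49, 0.63 and 0.78 at 10 weeks and 2.70, 2.66 and 2.83 at 5 weeks. The difference of -2.10 follows from the differences of opposite sign just given and is not a separate result. Slc25a22, a carrier that brings glutamate in with protons, had 804, 674 and 918 at 10 weeks against 1123, 2140.2 and 1208 at 5 weeks. It fell by 0.82 ± 0.23 (SE; adjusted p = 0.0275), and 5-week pool 2 stood well above the other pools. Without that pool the difference was -0.54, and leaving out 10-week pool 1 or 10-week pool 2 ended the call (adjusted p = 0.0649 and 0.09), as did testing with no filter (0.0517). Slc25a18, a second glutamate carrier, was too dim to be tested, with signals of 19.8 to 93.6.

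The adenine nucleotide and phosphate carriers fell in 3 of 6 tested cases, and none of the 6 was called higher. Slc25a4 (Ant1) is the ADP/ATP carrier of heart and skeletal muscle, and Slc25a5 (Ant2) is its paralogue of dividing and many other cells. Slc25a4 had 4374, 5424 and 6954 at 10 weeks against 9806, 7622 and 10333 at 5 weeks. Every 5-week pool was above every 10-week pool, and the gene fell by 0.74 ± 0.17 (SE; adjusted p = 0.0133). Another of its probe sets fell by 0.85, while a further probe set had a difference of 0.04 (adjusted p = 0.782). Slc25a5 had 10542, 9627 and 10743 at 10 weeks and 8949.5, 9308 and 8388 at 5 weeks. Its 10-week pools lay above the 5-week pools by a small margin, and the log2 difference of 0.21 ± 0.09 (SE) was not called (adjusted p = 0.095). The within-array log2 ratio of Slc25a4 to Slc25a5 was -1.26, -0.82 and -0.63 at 10 weeks and 0.13, -0.29 and 0.30 at 5 weeks, a difference of -0.95 that likewise follows from the 2 genes' own values. Slc25a3, which imports the phosphate for ATP synthesis, had 11847, 11205 and 11659.7 at 10 weeks and 11304, 11328 and 10851 at 5 weeks. The ages overlapped, and the difference was 0.05 ± 0.08 (SE; adjusted p = 0.649).

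**Figure D2:**
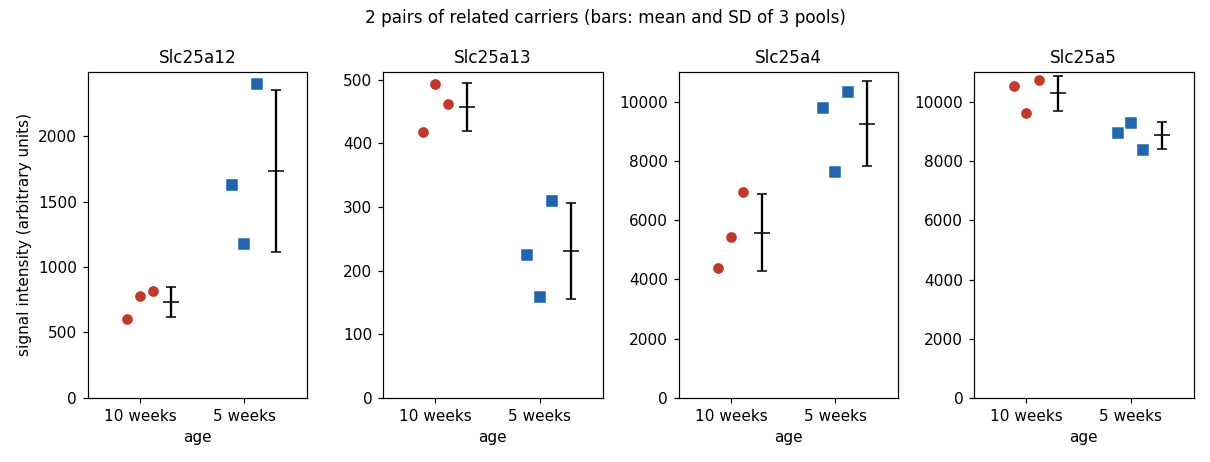
Signal intensity in each pool of the paralogues Slc25a12 and Slc25a13 and of Slc25a4 and Slc25a5, with each gene on its own axis from 0 and bars for the mean and SD of 3 pools. Slc25a12 and Slc25a4 are lower in every 10-week pool, and Slc25a13 and Slc25a5 are higher in every 10-week pool.

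The calcium-regulated exchangers of ATP-magnesium for phosphate adjust the adenine nucleotide content of mitochondria. Slc25a25 had 239, 393 and 314 at 10 weeks and 566, 696 and 707 at 5 weeks. The ages were apart, and the gene fell by 1.003 ± 0.184 (SE; adjusted p = 0.00408). Slc25a24 had 903, 766 and 862 at 10 weeks and 1506, 1171 and 1362 at 5 weeks. It fell by 0.65 ± 0.13 (SE; adjusted p = 0.00572), and here 5-week pool 1 was the highest. Slc25a23 had a difference of -0.42 ± 0.17 (SE) in overlapping pools (adjusted p = 0.0884), and was called lower once 5-week pool 1 was left out (-0.58, adjusted p = 0.0293). Slc25a31, the ADP/ATP carrier of male germ cells, and Slc25a41 were too dim to be tested, with no signal above 68.

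The promoters of the 2 paralogue pairs are shown because the members of each pair had differences of opposite sign. Each is the 250 bases before the RefSeq start of the gene on GRCm38.p6, written 5′ to 3′ on the strand of the gene, with matches to any of 5 short motifs in capitals. They lie at chr2:71367756-71368005 (- strand) for Slc25a12, chr6:6217174-6217423 (- strand) for Slc25a13, chr8:46211063-46211312 (- strand) for Slc25a4 and chrX:36795347-36795596 (+ strand) for Slc25a5.
Slc25a12: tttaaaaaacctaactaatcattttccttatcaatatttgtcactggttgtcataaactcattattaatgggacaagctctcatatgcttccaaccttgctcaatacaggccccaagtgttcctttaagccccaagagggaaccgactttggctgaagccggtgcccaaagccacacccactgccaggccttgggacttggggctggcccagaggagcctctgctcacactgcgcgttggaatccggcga
Slc25a13: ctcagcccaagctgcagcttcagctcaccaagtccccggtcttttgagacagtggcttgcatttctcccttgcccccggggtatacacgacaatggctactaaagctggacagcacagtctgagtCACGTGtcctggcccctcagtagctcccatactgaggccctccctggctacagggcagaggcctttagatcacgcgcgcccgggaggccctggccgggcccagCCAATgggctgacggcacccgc
Slc25a4: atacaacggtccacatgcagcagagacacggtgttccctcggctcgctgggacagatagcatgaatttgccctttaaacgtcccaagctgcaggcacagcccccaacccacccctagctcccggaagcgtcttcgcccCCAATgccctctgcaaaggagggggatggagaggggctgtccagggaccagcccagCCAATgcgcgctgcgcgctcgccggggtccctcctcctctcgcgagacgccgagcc
Slc25a5: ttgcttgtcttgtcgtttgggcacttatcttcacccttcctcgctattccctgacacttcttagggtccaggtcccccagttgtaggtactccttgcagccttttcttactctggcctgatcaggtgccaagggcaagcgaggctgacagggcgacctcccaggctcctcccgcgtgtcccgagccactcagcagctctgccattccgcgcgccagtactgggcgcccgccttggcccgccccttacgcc

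The motifs, searched on both strands, were the E-box CACGTG, the CCAAT box, the oestrogen-related receptor half-site AAGGTCA, the NRF1 core GCGCATGC and the STAT site TTCNNNGAA. In these promoters no matches overlapped. The Slc25a13 promoter held an E-box at 125 to 120 and a CCAAT box at 22 to 18 bases before the start, and the Slc25a4 promoter held CCAAT boxes at 112 to 108 and 56 to 52. Those of Slc25a12 and Slc25a5 held none of these letters. RefSeq promoters were at hand for 12 of the 16 called carriers, and all listed starts of a gene were searched. An E-box was found in 2 of 5 carriers that rose (Slc25a13 and Slc25a14), 0 of 7 that fell and 4 of 18 not called, and in 6.02% of 32851 promoters of the same length. A CCAAT box was found in 1 of 5 that rose, 4 of 7 that fell and 12 of 18 not called, and in 33.8% of promoters. The counts of carriers are per gene over all its starts, and the shares are per promoter. The other 3 motifs were found in none of the 12. A match is a run of letters and says nothing of binding.

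Among the carriers of citrate and its relatives, 1 of 3 was called. Slc25a10 exchanges malate and succinate for phosphate, and it had 3910.5, 4056 and 3566 at 10 weeks and 3222, 2807 and 3013 at 5 weeks. It was higher in each 10-week pool, with a small difference of 0.35 ± 0.10 (SE; adjusted p = 0.0268). Leaving out 10-week pool 1, 10-week pool 2, 5-week pool 2 or 5-week pool 3 ended this call (adjusted p = 0.075, 0.0908, 0.0854 and 0.0545), as did a fit with no variance trend (0.067). Slc25a1, the citrate carrier that feeds fatty acid synthesis, had 5288, 7178 and 7053 at 10 weeks and 7583, 7953 and 6350.3 at 5 weeks. The ages overlapped, and its difference of -0.17 ± 0.14 (SE) was not called (adjusted p = 0.39). Slc25a11, the oxoglutarate-malate carrier of the same shuttle as Slc25a12, had a difference of 0.04 ± 0.11 (SE; adjusted p = 0.817).

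Among carriers of pyrimidine nucleotides, cofactors and vitamins, 1 of 8 rose and 3 fell. Slc25a16, a carrier linked to coenzyme A in other species, had 1297, 1117 and 1283 at 10 weeks and 645, 620.2 and 696 at 5 weeks. The ages were far apart, and its rise of 0.88 ± 0.11 (SE) had the smallest adjusted p of all members (0.000758). Slc25a42, which takes coenzyme A into mitochondria, had 1426, 1518 and 1844 at 10 weeks and 1937, 2926 and 2392 at 5 weeks. It fell by 0.58 ± 0.16 (SE; adjusted p = 0.0265), and the highest 10-week pool lay close to the lowest 5-week pool. Slc25a51, the NAD carrier, had 3032, 3512 and 3399 at 10 weeks and 4263, 5516 and 4406 at 5 weeks. It fell by 0.50 ± 0.12 (SE; adjusted p = 0.0138) with the ages apart. Slc25a32, the carrier for folate and FAD, had 287, 297 and 201 at 10 weeks and 379.5, 475 and 405 at 5 weeks, and fell by 0.63 ± 0.18 (SE; adjusted p = 0.0263). The call of Slc25a42 was lost without 10-week pool 1, 10-week pool 2, 5-week pool 2 or 5-week pool 3 (adjusted p = 0.0847, 0.078, 0.0754 and 0.0649), and that of Slc25a32 without 10-week pool 3, 5-week pool 2 or 5-week pool 3 (0.0764, 0.0795 and 0.0548). Averaging the probe sets of Slc25a42 also ended its call, with a difference of -0.25 (adjusted p = 0.168).

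The pyrimidine nucleotide carrier Slc25a33 lay just outside the threshold, with 436, 397 and 490.4 at 10 weeks and 531, 758 and 606 at 5 weeks. Its ages did not overlap, and its difference of -0.48 ± 0.16 (SE) had an adjusted p of 0.0504. This became 0.0382 without 5-week pool 1, and 0.0355 to 0.0482 with averaged probe sets, a filter of 60% or robust variance. The gene has 1 probe set, so averaging left its difference unchanged. Slc25a36, which carries the same nucleotides, had 2834, 2375 and 2068 at 10 weeks and 2739.6, 2547 and 2088 at 5 weeks. These overlapped closely, with a difference of -0.02 ± 0.14 (SE; adjusted p = 0.928). Slc25a26, the carrier for S-adenosylmethionine, had a difference of 0.05 ± 0.12 (SE; adjusted p = 0.797). Slc25a17, a cofactor carrier of peroxisomes, had 851, 952.5 and 907 at 10 weeks against 843, 812 and 753 at 5 weeks. The ages were just apart, with a difference of 0.16 ± 0.11 (SE; adjusted p = 0.2996).

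Of 5 tested carriers of carnitine and amino acids, 2 fell. Slc25a20 carries acylcarnitines in and carnitine out and is needed for the oxidation of long-chain fatty acids. It had 979.7, 1357 and 1551 at 10 weeks and 2075, 2731 and 2563 at 5 weeks, and fell by 0.92 ± 0.18 (SE; adjusted p = 0.00489) with the ages apart. Slc25a44, a carrier of branched-chain amino acids in brown fat, had 693, 646 and 825 at 10 weeks and 858, 1185 and 1074 at 5 weeks. It fell by 0.50 ± 0.15 (SE; adjusted p = 0.0358), the weakest of the 16 calls by adjusted p. That call was lost without 10-week pool 1, 10-week pool 2, 5-week pool 2 or 5-week pool 3 (adjusted p = 0.0941, 0.113, 0.109 and 0.0911). It was also lost with no filter, quantile normalization, no variance trend, array weights or averaged probe sets (adjusted p = 0.0524 to 0.0765). Slc25a38, a glycine carrier of haem synthesis, had 780.1, 796 and 711 at 10 weeks and 564, 938 and 894 at 5 weeks, a difference of -0.03 ± 0.19 (SE; adjusted p = 0.914). Slc25a15, an ornithine carrier of the urea cycle, had a difference of 0.18 ± 0.15 (SE; adjusted p = 0.393), and Slc25a2, its paralogue, was too dim to be tested. Slc25a29, a carrier of basic amino acids, had signals of 541 to 557 at 10 weeks and 534 to 575 at 5 weeks, a difference of -0.01 ± 0.11 (SE; adjusted p = 0.961).

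None of the 4 iron and glutathione carriers was called by limma, and 2 of them had an unadjusted p under 0.05. The mitoferrin genes Slc25a37 and Slc25a28, whose products bring iron to haem and iron-sulfur synthesis, had differences of 0.0065 ± 0.1203 and -0.0011 ± 0.1067 (SE). Slc25a39, a glutathione carrier, had 10974, 9849 and 9963 at 10 weeks and 8705, 9474 and 8155 at 5 weeks. Its 10-week pools lay above the 5-week pools, with a difference of 0.23 ± 0.09 (SE; adjusted p = 0.0959). Its paralogue Slc25a40 had the opposite sign, -0.44 ± 0.17 (SE; adjusted p = 0.0856). Among the pools left out, it passed only without 5-week pool 3 (-0.57, adjusted p = 0.0418). It also passed in the fit with averaged probe sets (0.0498), although it has 1 probe set and its difference stayed at -0.44.

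Of 3 carriers related to the uncoupling proteins, Slc25a14 rose and the others did not pass the test. Slc25a14 had 252, 209.9 and 154 at 10 weeks and 143, 54.3 and 41.5 at 5 weeks. It was dim, and its 10-week pool 3 lay only a little above 5-week pool 1. The rise of 1.17 ± 0.33 (SE; adjusted p = 0.0259) was lost without 10-week pool 1, 10-week pool 2, 5-week pool 2 or 5-week pool 3 (adjusted p = 0.0848, 0.0697, 0.0719 and 0.0821), and also with no filter (0.0561) or array weights (0.0504). Slc25a30 had a difference of -0.32 ± 0.12 (SE; adjusted p = 0.0838) and Slc25a27 of -0.38 ± 0.23 (SE; adjusted p = 0.252), and Slc25a27 passed without 10-week pool 2 (-0.65, adjusted p = 0.0309). Among carriers with less defined substrates, Slc25a45 had 1967, 1944 and 1429.7 at 10 weeks and 1032, 1090.1 and 957 at 5 weeks. It rose by 0.76 ± 0.14 (SE; adjusted p = 0.00419) with the ages apart. Slc25a35 had 410.5, 560.2 and 661 at 10 weeks and 767, 1128 and 1117 at 5 weeks, and fell by 0.85 ± 0.20 (SE; adjusted p = 0.0139). Slc25a46, an outer membrane protein of mitochondrial shape, had a difference of -0.13 ± 0.12 (SE; adjusted p = 0.467). Slc25a34, Slc25a47 and Slc25a53 had differences of 0.24 ± 0.26, 0.06 ± 0.15 and -0.08 ± 0.17 (SE), with overlapping ages and adjusted p of 0.523, 0.813 and 0.763. Slc25a48 and Slc25a54 were too dim to be tested.

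Among carriers that fell and those not called, 5-week pool 2 was often the highest of its age. Of the 11 carriers that fell, 7 had their highest 5-week signal in pool 2 (63.6%, against 32.9% of all 2436 genes that fell). Of the 22 carriers that were not called, 14 also had it there (63.6%, against 33.4% of all 8574 genes not called). The 4 that fell but peaked elsewhere were Slc25a4, Slc25a12 and Slc25a25, in pool 3, and Slc25a24, in pool 1. At the other age, 7 of the 11 that fell were lowest in 10-week pool 1, as were 57.1% of all genes that fell.

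**Figure D3:**
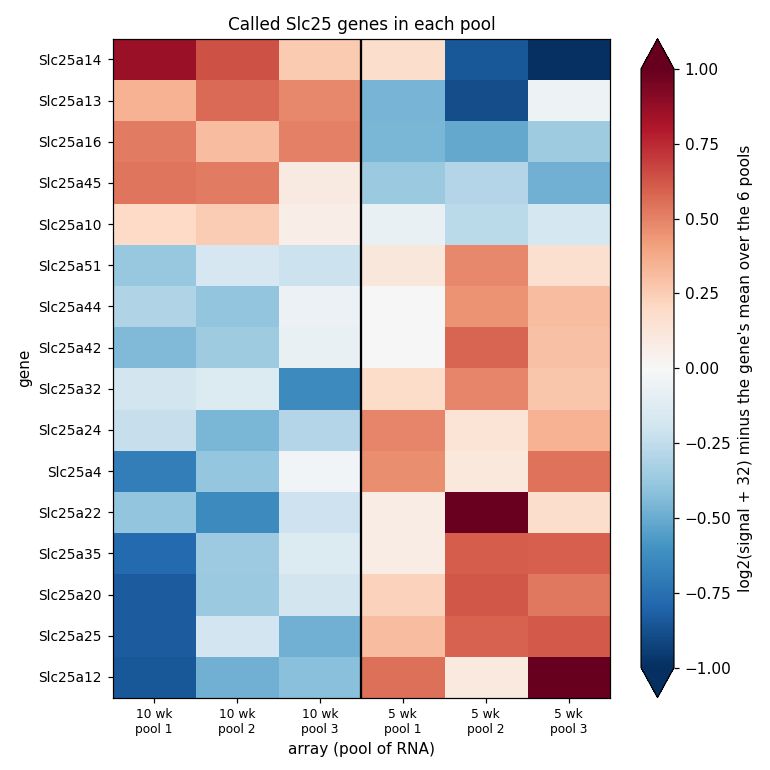
Colour map of the 16 called Slc25 genes (rows) in the 6 pools (columns, 10 weeks at the left), as log2(signal + 32) minus the mean of the gene over the pools. No gene has overlap of the ages, and among genes that fell the deepest red is in 5-week pool 2 for Slc25a22 and in 5-week pool 3 for Slc25a12.

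Marker genes of other tissues varied over the same pools. For comparison, 15.3% of all genes tested rose and 18.7% fell. Of 10 adipocyte (fat cell) markers, 5 fell, and their summed signal was 73937 to 89486 at 10 weeks and 92310 to 112643 at 5 weeks. Of 9 tested brown fat markers, 6 fell. The 3 that were not called were Cidea (0.47), Pdk4 (0.07) and Dio2 (-0.20). The summed signal of the 10 measured was 18355 to 29316 at 10 weeks and 25168 to 41319 at 5 weeks. Cidea alone made up 9711 of the sum of 18355 in 10-week pool 1. The adipocyte and brown fat sums were both highest in 5-week pool 2 and lowest in 10-week pool 1. Among the 5-week pools alone, pool 2 was the highest for 9 of the 10 adipocyte and 8 of the 9 brown fat markers. Ucp1, which defines brown fat, had 1772, 4356 and 7404 at 10 weeks and 8049, 13558 and 8627 at 5 weeks. Its difference of -1.34 ± 0.44 (SE; adjusted p = 0.0483) lost the call without any 1 pool except 10-week pool 3 (adjusted p = 0.0698 to 0.128), and without 10-week pool 1 the difference was -0.78. The Ucp1 call was also lost with an offset of 1, no filter, no variance trend, robust variance, array weights or averaged probe sets (0.0514 to 0.157).

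Of 18 skeletal muscle markers, 7 fell, and their summed signal was 9736 to 78102 at 10 weeks and 103003 to 189612 at 5 weeks. All 18 were lowest in 10-week pool 1, and for none of them was pool 2 the highest at 5 weeks. Of 9 fibroblast markers, 8 fell, with sums of 54500 to 58510.0 at 10 weeks and 82586 to 97428.5 at 5 weeks. Of 16 luminal and alveolar markers, 10 rose, with sums of 169994 to 201346 at 10 weeks and 101992 to 134555 at 5 weeks. Of 8 basal epithelial markers, 5 rose and 1 fell. No marker on these lists was at the floor in any pool, and of 4 red cell markers only 2 were bright enough to be tested.

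The pool values of 4 carriers were plotted beside these lists, chosen after their values were seen. Slc25a42 had the same order over all 6 pools as the mean log2 signal of the tested brown fat markers. So did Slc25a20 and Slc25a35, of which Slc25a35 was not plotted. How many of all genes had this order was not counted. The brown fat sums had another order, with 29316 in 10-week pool 3 above 25168 in 5-week pool 1. Slc25a20 was lowest in 10-week pool 1 and highest in 5-week pool 2, as the adipocyte mean was. The order of its 5-week pools 1 and 3 was the reverse of that mean's. Slc25a12 had its lowest signal in 10-week pool 1 and its highest in 5-week pool 3, as the muscle mean had, with 5-week pool 2 the lowest of its age in both and 10-week pools 2 and 3 in reverse order. Slc25a16 had the pool order of the luminal and alveolar mean at 10 weeks. At 5 weeks it was highest in pool 3, where that mean was lowest. The part that fat, muscle or epithelial content had in the calls cannot be told apart from age. The reason is that the means of all these lists were apart between the ages.

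**Figure D4:**
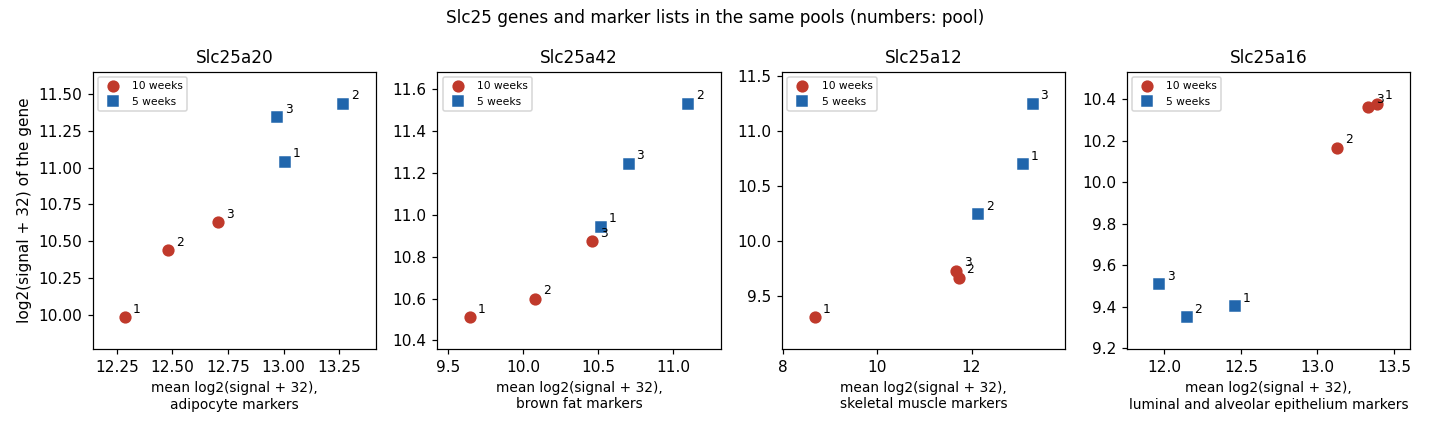
Log2(signal + 32) of Slc25a20, Slc25a42, Slc25a12 and Slc25a16 (vertical axes) against the mean of a marker list in the same pool (horizontal axes), with 1 point per pool, numbered. Points of 10 weeks are red circles and points of 5 weeks blue squares, and no panel has overlap of the ages on its horizontal axis.

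Several carriers were measured by more than 1 probe set. Of 19 genes with several probe sets tested, no gene had calls in both directions. The brightest probe set was called for 10 of them, and every tested probe set was called the same way for 3, which were Slc25a24, Slc25a32 and Slc25a51. For Slc25a4, 2 probe sets fell (by 0.74 and by 0.85), while another had 6158, 5680 and 5784 at 10 weeks and 5823, 5439 and 5917 at 5 weeks, a difference of 0.04 ± 0.08 (SE; adjusted p = 0.782). For Slc25a25 the second probe set had a difference of -0.11 (adjusted p = 0.622), and for Slc25a12 the other 2 had -0.75 and -0.17 (adjusted p = 0.0613 and 0.559), and averaging all 3 gave -0.69 (adjusted p = 0.00978). For Slc25a42 the second probe set had 0.07 (adjusted p = 0.783). The second probe sets of Slc25a20 and Slc25a10 had -0.54 and 0.29 in overlapping pools (adjusted p = 0.0697 and 0.153). For Slc25a44 another probe set was called lower (-0.75, adjusted p = 0.0113), while a further one had 0.16 (0.467). All 8 probe sets of Slc25a5 had positive differences, from 0.21 to 0.32, and 3 of them were called. With all probe sets of a gene averaged, Slc25a5 was called higher (0.27, adjusted p = 0.0396), while quantile normalization gave Slc25a5 a difference of 0.087 (adjusted p = 0.29). Averaging also gave a call to Slc25a17 (0.54, adjusted p = 0.0115), but brought in a probe set too dim for the main test. That probe set had 89.1, 92.7 and 76.1 at 10 weeks and 16.2, 28.6 and 51.7 at 5 weeks. Of the 4 tested for Slc25a39, 1 was called higher (0.39) and another had -0.25 (adjusted p = 0.104). Which parts of a transcript each probe set detects was not given in the sources used here.

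**Figure D5:**
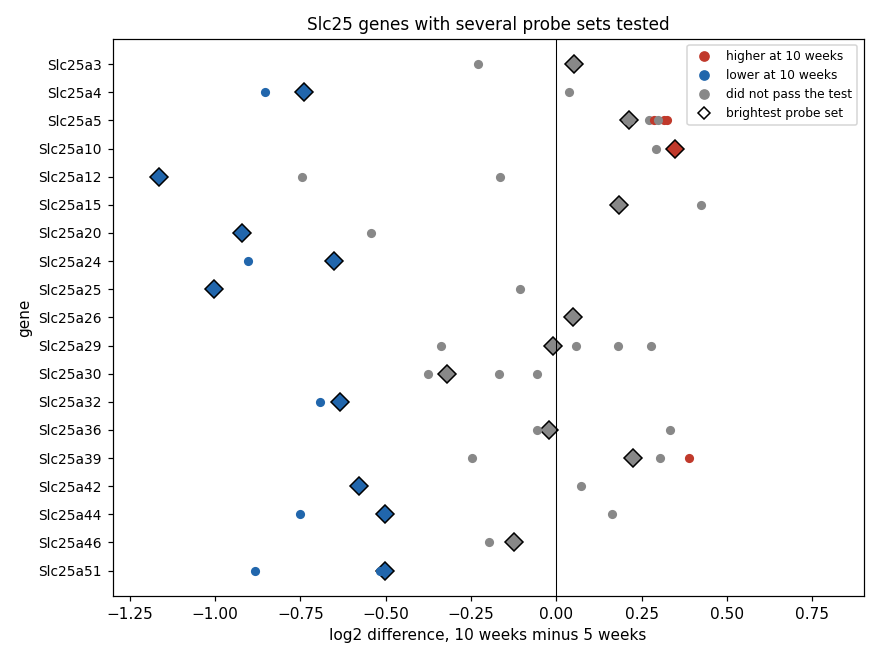
Log2 difference of every tested probe set of the 19 Slc25 genes with several, with diamonds for the brightest probe set of a gene. The probe sets of Slc25a5 lie together between 0.21 and 0.32, while those of Slc25a4 spread from -0.85 to 0.04.

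Genes that work beside the carriers were described from lists of partners. Over all genes tested, 34.1% were called, 15.3% higher and 18.7% lower. The called share was 38.9% for the membrane transport list and 47.1% for the citric acid cycle. It was 20% for the list built around exported citrate and malate, and 58.3% for enzymes of ornithine, proline and glycine. For the carnitine list and the haem list it was 31.25% each. Of 18 related carriers and other transporters of the mitochondrial membranes, 2 rose and 5 fell, with a median of -0.20. Ucp3, an uncoupling protein gene of the same family, was not among the members because of its symbol. It averaged 1884 ± 311 at 10 weeks and 703 ± 79.4 at 5 weeks (SD, n = 3 each), and rose by 1.37 ± 0.15 (SE, adjusted p = 0.000296). The serine transporter gene Sfxn1 fell by 0.44 ± 0.10 (SE; adjusted p = 0.00895). Abcb10, an ABC transporter of haem synthesis, fell by 0.42 (adjusted p = 0.0434) and Mtch1, an outer membrane relative of the carriers, fell by 0.42 (0.0476). The Abcb10 call was lost without any 1 pool (0.0507 to 0.136), and the Mtch1 call without any 1 pool but 10-week pool 3 (0.0547 to 0.126). Both were also lost with no filter, no variance trend or array weights (0.053 to 0.0863), and Abcb10 with quantile normalization (0.0685). Averaging its probe sets left Abcb10 with a difference of -0.13 (adjusted p = 0.593).

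Enzymes of the citric acid cycle fell in 8 of 17 cases and none rose, with a median of -0.43. Ogdh, a subunit of the oxoglutarate dehydrogenase, fell to 2344 ± 475 at 10 weeks, against 3801 ± 536 at 5 weeks (SD, n = 3 each), a difference of -0.70 ± 0.16 (SE; adjusted p = 0.0116). The fumarase gene Fh1 fell by 0.63 (adjusted p = 0.0165) and Dlst, another subunit of the complex of Ogdh, fell by 0.52 (0.0254). The Fh1 call was lost without 5-week pool 3 (0.0555), and the Dlst call without 10-week pool 1, 10-week pool 2, 5-week pool 2 or 5-week pool 3 (0.0787, 0.0706, 0.0789 and 0.0582). Dlst was also not called with no variance trend (0.0512) or with averaged probe sets (0.169). Of 10 enzymes on the list built around exported citrate and malate, 1 rose and 1 fell. The list also holds enzymes that act on other substrates, among them both called genes. The 8 not called had differences from -0.30 to 0.22. Idh1, the cytosolic isocitrate dehydrogenase, fell to 2548 ± 131 at 10 weeks, against 7493 ± 296 at 5 weeks (SD, n = 3 each), a difference of -1.55 ± 0.09 (SE; adjusted p = 3.1e-05). Got1, the cytosolic aminotransferase of the malate-aspartate shuttle, rose by 0.95 ± 0.24 (SE; adjusted p = 0.0189), a call lost without 10-week pool 1 (0.0506) or 10-week pool 3 (0.0667).

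Of 16 genes of the carnitine shuttle and fatty acid oxidation, 5 fell and none rose, with a median of -0.28. The carnitine acetyltransferase gene Crat fell by 1.02 ± 0.16 (SE; adjusted p = 0.00197), but its probe sets averaged together gave 0.11. Decr1, which prepares unsaturated fatty acids for oxidation, fell by 0.74 (adjusted p = 0.0043), and Etfb, which passes electrons from that pathway, fell by 0.60 (0.0107). Of 12 tested enzymes of ornithine, proline and glycine, 4 rose and 3 fell. Aldh18a1, which makes proline and ornithine precursors from glutamate, averaged 3966 ± 285 at 10 weeks and 1904 ± 125 at 5 weeks (SD, n = 3 each), a rise of 1.05 ± 0.10 (SE; adjusted p = 0.000183). The mitochondrial arginase gene Arg2 rose by 1.65 (adjusted p = 0.000838) and the glycine cleavage gene Gldc by 3.49 (5.74e-05), while the cytosolic arginase gene Arg1 fell by 0.90 (0.00225). Of 16 genes of haem, iron-sulfur and glutathione synthesis, 1 rose and 4 fell. Alas1, the entry enzyme of haem synthesis, fell by 0.99 ± 0.12 (SE; adjusted p = 0.000567) and the iron-sulfur assembly gene Isca1 fell by 0.95 ± 0.11 (0.000345). Alad, the next enzyme of haem synthesis, fell by 0.40 (adjusted p = 0.0182), a call lost without 10-week pool 1, 10-week pool 3 or 5-week pool 3 (0.056, 0.0545 and 0.0508) and with its probe sets averaged (-0.24, 0.165). Gclm, a subunit of the first enzyme of glutathione synthesis, rose by 0.80 ± 0.18 (SE; adjusted p = 0.0102).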

How the data were processed

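Per the labels, total RNA of mammary gland was measured with a UTP-biotin label on 6 arrays, 3 pools at each age. The deposited values are linear signal intensities, 1 for each of 45101 probe sets. Their mean without the lowest and highest 2% is close to 500 on every array, and the algorithm behind them was not given in the sources used here. After 64 controls were left out, 34945 probe sets had a single symbol, 932 several and 9160 none; 34741 were matched to RefSeq (GRCm38.p6) by gene identifier. A probe set with both Slc25a37 and another symbol was left out of the genes.

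Signals under 1 were set to 1, log2(signal + 32) was taken, the dimmest 40% of probe sets were left out, and limma 3.58.1 in R 4.3.3 was fitted on age across the remaining 27022 with a variance trend and 4 residual degrees of freedom. Array medians differed by 0.118 on the log2 scale, so no normalization was added. Replicate numbers are in accession order and pair no pools. The spread covers pools and arrays together, and the number of arrays limits precision. The steps were tested on simulated data.

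The members and lists were chosen with earlier results of these data known. Called members are named with every pool. Of the others, the brightest per role are named, and further members were added after their values were seen. Of each partner list, up to 3 calls with the smallest adjusted p in the main direction and the largest call the other way are named. Promoters are from RefSeq, for 34 of 44 members. Plots were drawn with matplotlib 3.10.9 in Python 3.11.15.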

Additional observations from a re-analysis of the deposited data

How the results depend on the processing

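Of the 16 called carriers, 10 kept their call without each pool in turn and in each of 9 other alternatives, namely offsets of 1 and 100, averaged probe sets, array weights, a robust variance or none of its trend, quantile normalization, a filter of 60% and no filter. These 10 were Slc25a4, Slc25a12, Slc25a13, Slc25a16, Slc25a20, Slc25a24, Slc25a25, Slc25a35, Slc25a45 and Slc25a51. In those 9 alternatives 4 to 6 carriers were called higher and 9 to 12 lower, and Slc25a14 was too dim to be tested with the filter of 60% or with averaged probe sets. Leaving out pools gave 3 to 5 higher and 8 to 13 lower carriers, 1415 to 1746 higher and 1854 to 2044 lower among all genes, and a median of -0.127 to -0.041 over the carriers. That median was -0.11 with averaged probe sets and also -0.11 with the mean of the muscle markers as a covariate. With the muscle covariate 2 carriers were higher (Slc25a13 and Slc25a16) and 0 lower by limma, with 4 and 9 at an unadjusted p under 0.05, and 745 and 951 among all genes. Differences whose calls were lost there included -1.03 for Slc25a22, -0.81 for Slc25a32, -0.69 for Slc25a24 and -0.34 for Slc25a4. With the mean of the adipocyte markers as a covariate, chosen after the data were seen, 0 were higher and 0 lower, with 1 and 2 at an unadjusted p under 0.05, and 10 and 34 among all genes. Differences there included -1.41 for Slc25a12, -0.91 for Slc25a24 and -0.19 for Slc25a20. Both covariates were apart between the ages and left 3 residual degrees of freedom, so these fits cannot tell age from tissue content. Among the called genes named here, the adipocyte covariate turned the sign of Slc25a22 (0.020), Slc25a42 (0.065), Mtch1 (0.077), Dlst (0.13) and Ucp1 (0.99). Averaging turned the sign of Crat (0.11). The cause was not tested. Of carriers not called, Slc25a1, at -0.17 in the main fit, had 0.36 with the adipocyte and 0.047 with the muscle covariate. It was called in neither of these fits.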
